A study of Homo sapiens with 12 samples.

Results

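A set of 10 genes of the ETS family of transcription factors were followed through 12 RNA-seq libraries of EGFR-mutant non-small cell lung cancer cells exposed to EGFR inhibitors. The 10 genes were ETV1, ETV4 and ETV5 (the PEA3 subfamily), ETS1 and ETS2, the ternary complex factors ELK1, ELK3 and ELK4, and the epithelial factors ELF3 and EHF. They were taken by name from a count table of 60591 genes, and all 10 were among the 19108 genes that passed the expression filter. PC9 and H1650 are established lung cancer cell lines. Their genotype was labelled Wild-type in all 6 groups, and the study describes both lines as harboring the same activating deletion in EGFR. For each line, cells were collected when drugs were added (T0, labelled DMSO at 0.1%, 0 h) or 36 h later, after treatment with erlotinib at 10 μM or with osimertinib at 0.1 μM. There were 2 libraries per group. Erlotinib binds EGFR reversibly and osimertinib binds it covalently. The comparisons below address how each drug changed these genes in each line, and whether the lines differed. A vehicle library of the 36 h time point was not analysed here, so the drug and the 36 h of culture cannot be told apart. The study describes its RNA-seq replicates as biological, but nothing in the labels says that they came from separate cultures, and p-values measure only the spread between these libraries.

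ETS factors bind DNA through a shared domain that recognizes a core GGAA sequence, and many of them are effectors of the RAS-ERK pathway below EGFR. ERK phosphorylates ETS1, ETS2 and the ELK proteins directly. The ELK proteins bind promoters together with SRF and drive immediate early genes. The PEA3 genes are themselves transcriptional outputs of ERK signaling, since the repressor CIC holds them off until ERK relieves it, and they are read as markers of pathway activity in lung cancer. ELF3 and EHF belong to an epithelial branch of the family and are expressed in glandular and airway epithelium.

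Library totals ran from 17961765 to 26346187 reads, and the libraries of a group differed by more than counting noise in all 6 groups. Mitochondrial genes held 4.37% to 5.36% of the reads in the 4 T0 libraries and 5.77% to 7.20% in the 8 treated libraries, so this share moved with every comparison of a drug with T0, and its part in those results was not tested. A count of 3 reads, the most that a count of 0 allows, equalled 0.116 to 0.168 normalized CPM (read counts scaled to the TMM-adjusted library size), a limit that covers counting error only. The epithelial markers EPCAM, CDH1, KRT7, KRT8, KRT18 and KRT19 were at 185 to 4280 CPM in every library. The lung lineage markers NKX2-1, SFTPB and SFTPC had at most 4 reads in any library, and NAPSA had at most 40. None of the 10 markers of leukocytes, endothelium and fibroblasts exceeded 3.96 CPM except COL1A1, which reached 44.8 CPM. In bulk RNA, fewer expressing cells and less RNA per cell cannot be told apart.

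Upstream sequence was available for 7 of the 10 genes in RefSeq (GRCh38.p14), as 15 windows of 250 bases that end just before an annotated start. ETV4, ETV5 and ETS1 had no window. Both strands were searched for the octamers bound by CIC (TGAATGAA, TGAATGGA, TCAATGAA and TCAATGGA), the ETS site CCGGAAGT, the AP-1 site TGANTCA, the GC box GGGCGG and the TATA box TATAAA. The CIC octamer was found in 1 of the 15 windows, and 3.18% of the 35116 windows of all genes held at least 1 of its forms. That window lies upstream of the farthest start of ETV1, the only PEA3 gene with a window, and the octamer begins 125 bases before the start. The ETS site was found in 1 window, that of ELK4, 22 bases before the start, against 3.42% of all windows. The AP-1 site was found in none of the 15, against 6.57% of all windows, the GC box in 5, against 42.6%, and the TATA box in 1 window of ELF3, against 10.7%. The windows of ETV1 (chr7:13991426-13991675, minus strand) and ELK4 (chr1:205632012-205632261, minus strand) are shown with the CIC octamer and the ETS site in capitals. That of EHF (chr11:34624007-34624256, plus strand), the gene that differed most between the lines, holds none of these motifs. All are 5′ to 3′ on the strand of the gene and contain no annotated exon. A match describes these letters only.
ETV1: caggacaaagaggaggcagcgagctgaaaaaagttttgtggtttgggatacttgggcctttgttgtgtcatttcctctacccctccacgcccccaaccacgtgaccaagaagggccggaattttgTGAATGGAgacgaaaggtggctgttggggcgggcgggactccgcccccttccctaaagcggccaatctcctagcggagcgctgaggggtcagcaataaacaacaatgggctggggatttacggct
ELK4: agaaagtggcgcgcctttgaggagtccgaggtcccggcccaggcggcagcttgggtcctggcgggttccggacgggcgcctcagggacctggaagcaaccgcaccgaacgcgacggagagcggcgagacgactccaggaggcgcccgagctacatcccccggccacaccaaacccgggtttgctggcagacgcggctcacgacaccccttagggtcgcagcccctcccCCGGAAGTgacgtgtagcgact
EHF: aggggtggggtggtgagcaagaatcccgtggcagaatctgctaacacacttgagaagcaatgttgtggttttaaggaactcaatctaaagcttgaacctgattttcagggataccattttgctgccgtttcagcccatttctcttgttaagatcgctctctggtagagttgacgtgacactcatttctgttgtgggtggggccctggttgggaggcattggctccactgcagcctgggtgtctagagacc

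In PC9 cells, 9 of the 10 ETS genes passed the test after erlotinib, 2 in the upward and 7 in the downward direction. Genes are termed called where the edgeR adjusted p was under 0.05. Of all 19108 tested genes, 61.8% were called in that comparison, 32.7% higher and 29.1% lower. After osimertinib all 10 were called, 2 higher and 8 lower, where 61.4% of all genes were called, 32.7% higher and 28.7% lower. In H1650 cells, 7 were called after erlotinib, 5 higher and 2 lower, against 36.5% of all genes (18.0% higher and 18.5% lower). After osimertinib 5 were called in H1650, 3 higher and 2 lower, against 35.7% of all genes (17.8% higher and 17.9% lower). The median log2 fold change of the 10 genes was -0.77 in PC9 with erlotinib, -0.59 in PC9 with osimertinib, 0.24 in H1650 with erlotinib and 0.05 in H1650 with osimertinib, beside 0.07, 0.06, 0.01 and 0 over all tested genes. Within a line, the comparisons of erlotinib and of osimertinib share their T0 libraries.

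**Figure D1:**
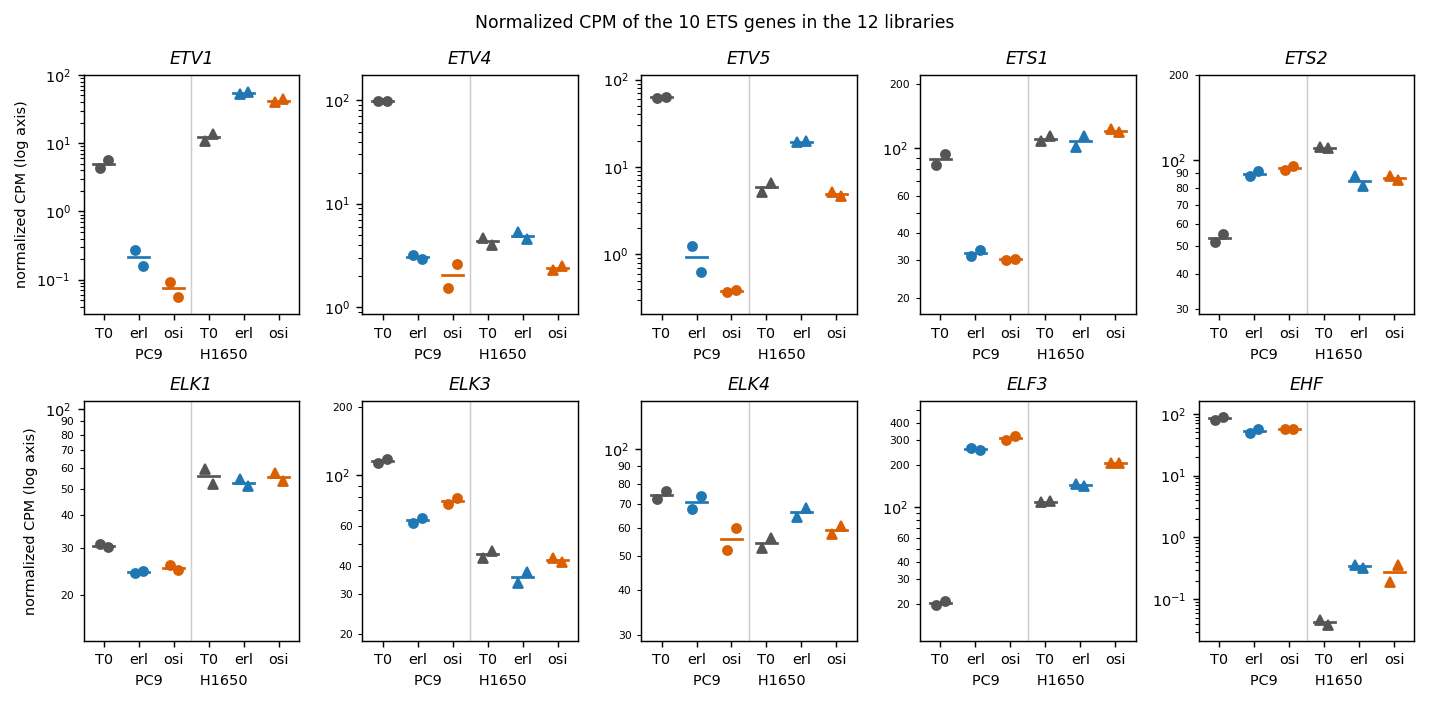
Normalized CPM (log axis, scaled for each gene) of the 10 ETS genes in the 12 libraries, with PC9 as circles and H1650 as triangles, T0 in gray, erlotinib (erl) in blue and osimertinib (osi) in orange. Points are single libraries and bars are means of 2. ETV1, ETV4 and ETV5 dropped from PC9 T0 to both drugs, while ETV1 was higher in treated H1650 than in H1650 T0.

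The PEA3 genes fell steeply in PC9 cells after both drugs. ETV4, on chromosome 17 (GRCh38 43527844 to 43579620, minus strand), is the founding member of the subfamily. Its level was 99.2 and 98.4 CPM in the PC9 T0 libraries, 3.18 and 2.89 CPM after erlotinib, and 1.53 and 2.58 CPM after osimertinib. The PC9 T0 libraries thus stood far above all 10 other libraries, and no treated PC9 library came near them. The log2 fold change of ETV4 was -5.03 ± 0.15 (SE, adjusted p = 2.22e-21 in edgeR) with erlotinib, 32.6-fold lower, and -5.61 ± 0.16 (adjusted p = 1.36e-21) with osimertinib, 49.0-fold lower. ETV5, on chromosome 3 (186046308 to 186110318, minus strand), which is regulated alongside ETV4 in lung epithelium, was at 62.1 and 63.5 CPM at T0, 1.25 and 0.625 CPM after erlotinib and 0.370 and 0.392 CPM after osimertinib. It fell by 6.08 ± 0.18 (adjusted p = 5.75e-21) and by 7.35 ± 0.22 (adjusted p = 4.31e-21) on the log2 scale.

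ETV1, on chromosome 7 (13891228 to 13991425, minus strand), an ETS factor known as a driver in prostate cancer and gastrointestinal stromal tumors, started much lower in PC9. It had 85 and 116 reads in the T0 libraries (4.29 and 5.73 CPM), 6 and 4 reads after erlotinib and 2 and 1 after osimertinib. The libraries of the 3 groups did not overlap, but the treated groups lay close to the limit of detection. The log2 fold change was -4.55 ± 0.32 (adjusted p = 5.98e-13) with erlotinib. With osimertinib, the 3 reads left gave a T0 over osimertinib ratio of 65.9 with a 95% counting interval of 22.2 to 322.

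In H1650 cells the PEA3 genes did not move together. ETV1 was at 10.9 and 13.5 CPM at T0, 53.1 and 56.3 CPM after erlotinib and 40.5 and 43.9 CPM after osimertinib. Every treated library was above both T0 libraries, and ETV1 rose by 2.16 ± 0.12 (adjusted p = 9.20e-14) with erlotinib and by 1.78 ± 0.12 (adjusted p = 6.19e-12) with osimertinib on the log2 scale, 4.46-fold and 3.44-fold. ETV5 was at 5.22 and 6.56 CPM at T0, 19.2 and 19.6 CPM after erlotinib, and 5.11 and 4.59 CPM after osimertinib. It rose by 1.71 ± 0.15 (adjusted p = 3.12e-10) with erlotinib, 3.28-fold, whereas its log2 fold change of -0.29 ± 0.17 with osimertinib did not pass the test (adjusted p = 0.196). ETV4 was low in every H1650 library, with 100 and 104 reads at T0, 102 and 98 after erlotinib, and 48 and 56 after osimertinib. Its log2 fold change was 0.18 ± 0.17 (adjusted p = 0.446) with erlotinib, and it fell by 0.85 ± 0.19 (adjusted p = 0.000979) with osimertinib.

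**Figure D2:**
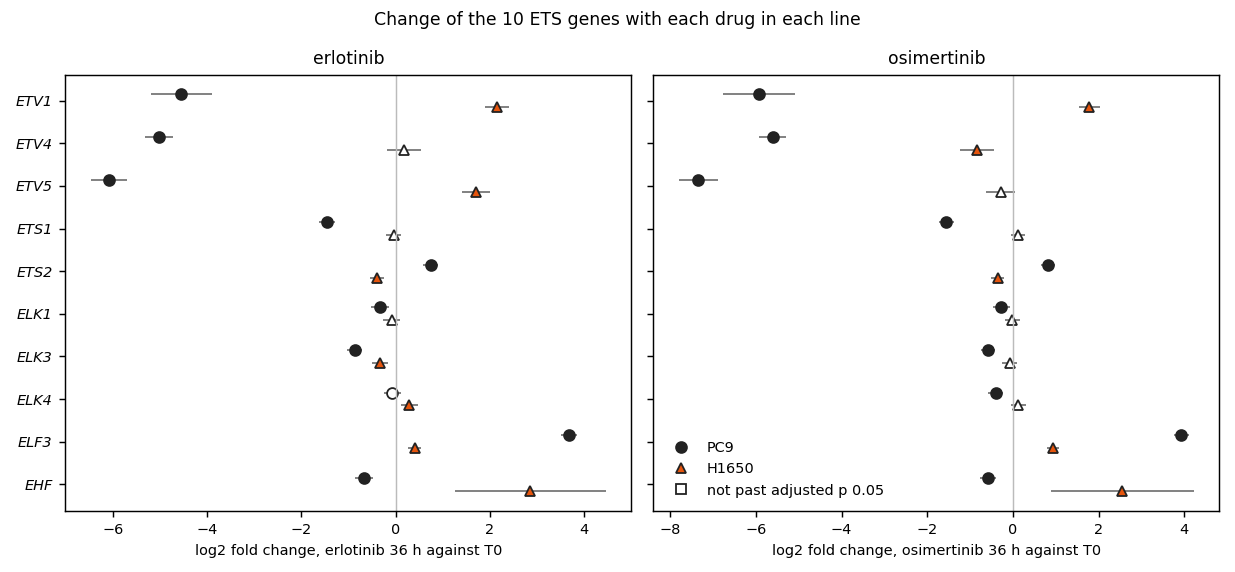
Log2 fold change against T0 of the 10 ETS genes after erlotinib (left) and osimertinib (right), in PC9 (circles) and H1650 (triangles), with 95% intervals from the edgeR fit. Open symbols did not pass an adjusted p of 0.05. The PEA3 genes lie between -4.55 and -7.35 in PC9 and between -0.85 and 2.16 in H1650, and ELF3 lies above 0 in all 4 comparisons.

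The difference between the lines was tested itself, by subtracting the change of PC9 from that of H1650. Of the 10 genes, 9 were called with erlotinib, 7 higher and 2 lower, where 40.8% of all genes were called (21.1% higher and 19.8% lower). With osimertinib 9 were also called, 7 higher and 2 lower, where 41.9% of all genes were called (21.5% higher and 20.5% lower). The PEA3 genes had the largest differences of the 10. That of ETV5 was 7.80 ± 0.24 (adjusted p = 1.46e-19) with erlotinib and 7.05 ± 0.31 (adjusted p = 1.27e-16) with osimertinib. That of ETV1 was 6.71 ± 0.32 (adjusted p = 7.16e-16) and 7.72 ± 0.40 (adjusted p = 3.72e-15), and rests in PC9 on the few reads given above. That of ETV4 was 5.21 ± 0.23 (adjusted p = 1.59e-16) and 4.77 ± 0.28 (adjusted p = 4.71e-14), where ETV4 in H1650 was not called with erlotinib and fell by 0.85 with osimertinib. ETV4 differed between the lines at the start, since at T0 it was 22.8-fold lower in H1650 than in PC9.

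Put on a scale per gene length, the PEA3 genes had a different make-up in each line. The summed level of ETV1, ETV4 and ETV5 was 39.4 and 39.6 CPM per kilobase in PC9 T0, 1.15 and 0.946 after erlotinib and 0.508 and 0.807 after osimertinib. In H1650 it was 3.37 and 3.68 at T0, 10.4 and 10.6 after erlotinib and 5.75 and 6.07 after osimertinib. The treated H1650 libraries were therefore above the treated PC9 libraries without overlap, with the reverse order at T0. ETV4 made up 71.6% and 70.7% of the sum in PC9 T0, and ETV1 1.13% and 1.5%. In H1650 T0 ETV1 made up 33.7% and 38.1%, ETV4 39.4% and 31.0%, and ETV5 26.9% and 30.9%. ETV1 made up 53.4% and 55.5% after erlotinib in H1650 and 73.3% and 75.2% after osimertinib. No test was made on these shares, which combine 3 genes whose own tests are given above.

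**Figure D3:**
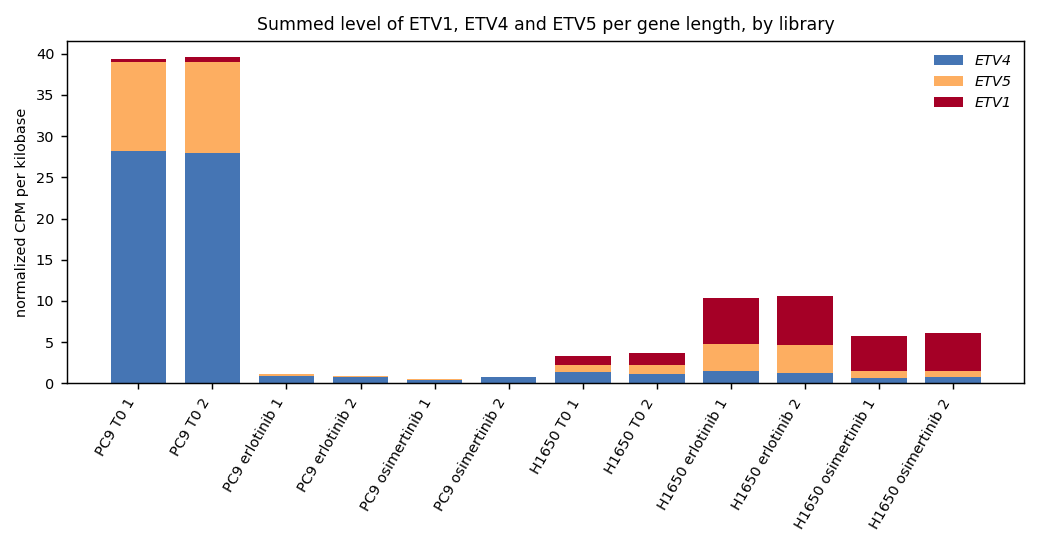
Normalized CPM per kilobase of ETV4 (blue), ETV5 (orange) and ETV1 (red), stacked, in each of the 12 libraries. The 2 PC9 T0 bars reach 39.4 and 39.6, made mostly of ETV4, all treated PC9 bars are at most 1.15, and H1650 bars run from 3.37 to 10.6 with a growing share of ETV1 after treatment.

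Reads of ETV5 may include some of DGKG, a diacylglycerol kinase gene on the same strand whose exons share 164 bases, or 2.83%, of the ETV5 exons in GENCODE 29. DGKG was at 37.4 ± 3.74 CPM (SD, n = 2) in PC9 T0, 2.84 ± 0.344 after erlotinib and 3.93 ± 0.462 after osimertinib, and had at most 2 reads in any H1650 library. ETV4 shares 68 exon bases with DHX8 on the opposite strand, which stayed between 61.3 and 66.9 CPM in all 12 libraries. The strandedness of the counting is not given in the sources used here, and the part of these shared bases in the results was not tested.

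ETS1 and ETS2, paralogs that ERK phosphorylates at a homologous site, moved in opposite directions in PC9. ETS1 (chromosome 11, 128458761 to 128587558, minus strand) was at 83.8 and 93.9 CPM in PC9 T0, 31.2 and 33.5 CPM after erlotinib and 30.2 and 30.3 CPM after osimertinib. Both treated groups were below T0 without overlap, and ETS1 fell by 1.46 ± 0.09 (adjusted p = 1.38e-14) and by 1.55 ± 0.09 (adjusted p = 4.72e-15) on the log2 scale. In H1650 it was at 108 and 114 CPM at T0, 102 and 114 after erlotinib, and 123 and 119 after osimertinib. The log2 fold changes there, -0.04 ± 0.08 (adjusted p = 0.751) and 0.12 ± 0.08 (adjusted p = 0.248), did not pass the test. ETS2 (chromosome 21, 38805307 to 38824955, plus strand) was at 51.9 and 55.1 CPM in PC9 T0, 88.0 and 91.7 CPM after erlotinib and 92.5 and 95.5 CPM after osimertinib. It thus rose by 0.75 ± 0.08 (adjusted p = 1.80e-09) and by 0.81 ± 0.08 (adjusted p = 3.66e-10). In H1650 the order was the reverse, since ETS2 was at 111 and 110 CPM at T0, 87.8 and 81.3 after erlotinib, and 87.8 and 85.5 after osimertinib. It fell there by 0.39 ± 0.07 (adjusted p = 0.000123) and by 0.35 ± 0.07 (adjusted p = 0.000366). The drug-by-line difference was called for both paralogs with both drugs, at 1.42 ± 0.12 and 1.68 ± 0.12 for ETS1 and at -1.14 ± 0.11 and -1.17 ± 0.11 for ETS2 (largest adjusted p = 9.19e-10).

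The log2 fold changes of the ternary complex factors ran from -0.87 to 0.29 over the 4 drug comparisons. ELK3 (chromosome 12, 96194382 to 96269835, plus strand), a family member that can act as a repressor, was at 114 and 118 CPM in PC9 T0, 61.7 and 65.0 after erlotinib and 74.7 and 79.0 after osimertinib. It fell by 0.87 ± 0.08 (adjusted p = 1.83e-10) and by 0.59 ± 0.08 (adjusted p = 2.27e-07). In H1650 ELK3 was at 43.2 and 46.4 CPM at T0, 33.6 and 37.5 CPM after erlotinib and 43.4 and 41.4 CPM after osimertinib. Only the erlotinib libraries lay below T0 without overlapping the other groups of that line, with a log2 fold change of -0.33 ± 0.09 (adjusted p = 0.00281), which was not called without H1650 erlotinib replicate 1 (adjusted p = 0.0678). With osimertinib it was -0.08 ± 0.08 (adjusted p = 0.505). The drug-by-line difference of ELK3 was 0.54 ± 0.12 (adjusted p = 0.000424) with erlotinib and 0.51 ± 0.12 (adjusted p = 0.000632) with osimertinib.

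ELK1 (chromosome X, 47635521 to 47650604, minus strand), the best known SRF partner, was at 31.0 and 30.3 CPM in PC9 T0, 24.2 and 24.6 after erlotinib and 25.9 and 24.8 after osimertinib. It fell by 0.32 ± 0.09 (adjusted p = 0.00417) and by 0.27 ± 0.10 (adjusted p = 0.0157). The second of these calls was lost without PC9 T0 replicate 1 (adjusted p = 0.0745) or PC9 osimertinib replicate 2 (adjusted p = 0.0816). In H1650 the 6 libraries lay between 51.3 and 59.7 CPM with overlapping groups, and neither drug gave a call (adjusted p = 0.520 and 0.949). ELK1 was the gene of the 10 without a called drug-by-line difference, at 0.25 ± 0.13 (adjusted p = 0.137) and 0.26 ± 0.13 (adjusted p = 0.112), but without H1650 T0 replicate 1 the osimertinib difference was called (adjusted p = 0.0408).

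ELK4 (chromosome 1, 205597556 to 205631962, minus strand), also called SAP-1, had the narrowest range of the 10 genes, with group means from 54.3 to 74.2 CPM, a span of 1.37-fold. In PC9 it was at 72.3 and 76.2 CPM at T0, 67.9 and 73.9 CPM after erlotinib and 52.0 and 60.1 CPM after osimertinib. The erlotinib libraries overlapped T0 (log2 fold change -0.07 ± 0.08, adjusted p = 0.516), and the osimertinib libraries lay below it (-0.41 ± 0.09, adjusted p = 0.000155). In H1650 ELK4 was at 52.5 and 56.2 CPM at T0, 64.5 and 68.4 CPM after erlotinib and 57.9 and 60.9 CPM after osimertinib. It rose by 0.29 ± 0.09 with erlotinib (adjusted p = 0.00810), a call lost without H1650 T0 replicate 1 (adjusted p = 0.0914) or H1650 erlotinib replicate 2 (adjusted p = 0.0819). With osimertinib the value was 0.13 ± 0.09 (adjusted p = 0.268). The drug-by-line difference was 0.53 ± 0.12 (adjusted p = 0.000653) with osimertinib. With erlotinib it was 0.36 ± 0.12 (adjusted p = 0.0177), which failed the test without PC9 T0 replicate 2, PC9 erlotinib replicate 1, H1650 T0 replicate 1 or H1650 erlotinib replicate 2 (adjusted p from 0.0637 to 0.0761).

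ELF3, the epithelium-specific factor also called ESE-1 (chromosome 1, 202007945 to 202017188, plus strand), rose in both lines and with both drugs, and far more in PC9. It was at 19.7 and 21.2 CPM in PC9 T0, 263 and 258 CPM after erlotinib and 302 and 321 CPM after osimertinib. Every treated PC9 library was thus more than 10-fold above T0, with a log2 fold change of 3.67 ± 0.08 (adjusted p = 2.12e-23), 12.8-fold, with erlotinib and 3.93 ± 0.08 (adjusted p = 5.42e-24), 15.3-fold, with osimertinib. In H1650 ELF3 started at 108 and 110 CPM and was at 146 and 142 CPM after erlotinib and 208 and 207 CPM after osimertinib. The 3 groups did not overlap, and the log2 fold changes were 0.41 ± 0.07 (adjusted p = 3.73e-05) and 0.93 ± 0.07 (adjusted p = 2.91e-11). The drug-by-line difference was -3.27 ± 0.11 (adjusted p = 2.73e-19) and -3.0 ± 0.11 (adjusted p = 1.69e-18). ELF3 shares 664 exon bases, 9.23% of its own, with ELF3-AS1 on the opposite strand. That transcript was at 2.35 ± 0.106 CPM in PC9 T0, 12.8 ± 0.143 after erlotinib, 18.9 ± 1.02 after osimertinib, and at 10.1 ± 0.441, 14.7 ± 1.18 and 18.2 ± 0.270 CPM in the H1650 groups (SD, n = 2). Reads of the antisense pair cannot be told apart where strand was not used, and this was not tested.

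EHF (ESE-3, chromosome 11, 34621093 to 34661057, plus strand), which belongs with ELF3 to the epithelium-specific subfamily, was abundant in the 6 PC9 libraries and close to the limit of detection in the 6 H1650 libraries. It was at 78.1 and 90.3 CPM in PC9 T0, 49.7 and 55.9 after erlotinib and 56.3 and 56.2 after osimertinib. It fell there by 0.67 ± 0.09 (adjusted p = 4.14e-07) and by 0.58 ± 0.09 (adjusted p = 4.25e-06), opposite to ELF3. In H1650, EHF had 1 read in each T0 library, 7 and 7 after erlotinib, and 4 and 8 after osimertinib. All 6 H1650 libraries were at most at 0.361 CPM, and the treated ones were above T0. The ratio of treated to T0 reads was 8.11 (95% counting interval 1.86 to 73.6) with erlotinib and 6.55 (1.46 to 60.2) with osimertinib. Both were called in the fit across all genes (adjusted p = 0.00450 and 0.0142), but the osimertinib call was lost without either H1650 T0 library (adjusted p = 0.0525 and 0.0916) or without osimertinib replicate 2 (adjusted p = 0.172). The drug-by-line difference of EHF, 3.53 ± 0.77 (adjusted p = 0.000464) and 3.14 ± 0.81 (adjusted p = 0.00225), rests on the same few reads, and with osimertinib it was not called without H1650 osimertinib replicate 2 (adjusted p = 0.0557).

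Before treatment, all 10 ETS genes differed between the lines, 5 higher and 5 lower in H1650, where 69.6% of all genes were called (35.8% higher and 33.8% lower). EHF differed most, with a PC9 over H1650 ratio of 1995 and a 95% counting interval of 552 to 16479 from 2 H1650 reads. ETV4 and ETV5 were lower in H1650 (-4.51 ± 0.14 and -3.40 ± 0.14 on the log2 scale, 10.6-fold for ETV5), and ETV1 was higher by 1.29 ± 0.15, 2.44-fold. The PEA3 genes therefore did not share a direction between the lines at T0 either. ELF3 was 5.32-fold higher in H1650 (2.41 ± 0.08), ETS2 2.07-fold (1.05 ± 0.08), ELK1 1.83-fold (0.87 ± 0.09) and ETS1 1.25-fold (0.32 ± 0.08). ELK3 was 2.59-fold lower (-1.37 ± 0.08) and ELK4 1.37-fold lower (-0.45 ± 0.08). The largest adjusted p among the 10 was 0.000841, for ETS1. Line identity is confounded here with everything else that distinguishes PC9 from H1650.

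Osimertinib and erlotinib were given at different doses, 0.1 μM and 10 μM, so drug and dose cannot be told apart. In PC9, 4 of the 10 genes differed between the treatments, ELK3 and ELF3 higher and ETV5 and ELK4 lower after osimertinib, where 16.6% of all genes were called (10.1% higher and 6.41% lower). All of these differences were small in reads or in fold. ELF3 was higher by 0.26 ± 0.07 (adjusted p = 0.00795), ELK3 was higher by 0.28 ± 0.08 (adjusted p = 0.0163), and ELK4 was lower by 0.34 ± 0.09 (adjusted p = 0.00508). ETV5, with 28 and 16 reads after erlotinib and 8 and 7 after osimertinib, differed by -1.26 ± 0.42 (adjusted p = 0.0356). None of these 4 calls survived the removal of every single library. ETV5 lost its call without PC9 erlotinib replicate 1 (adjusted p = 0.437) or either osimertinib library (0.182 and 0.127). ELF3 lost it without erlotinib replicate 2 (0.0586) or osimertinib replicate 2 (0.0892), ELK3 without erlotinib replicate 1 (0.118) or osimertinib replicate 2 (0.133), and ELK4 without erlotinib replicate 2 (0.0707) or osimertinib replicate 1 (0.140). ETV4 was not called (-0.59 ± 0.22, adjusted p = 0.0662), though it was without osimertinib replicate 2 (adjusted p = 0.0137), and the ETV1 erlotinib over osimertinib ratio of 2.74 had a counting interval of 0.706 to 15.5.

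In H1650, 4 of the 10 genes differed between the treatments, ELF3 higher and all 3 PEA3 genes lower after osimertinib, where 8.75% of all genes were called (5.02% higher and 3.73% lower). ETV5 was 4.01-fold lower with osimertinib than with erlotinib (-2.0 ± 0.15, adjusted p = 2.18e-10). ETV4 was 2.04-fold lower (-1.03 ± 0.19, adjusted p = 0.000639) and ELF3 1.44-fold higher (0.53 ± 0.07, adjusted p = 4.57e-06). The ETV1 difference was -0.38 ± 0.11 (adjusted p = 0.0337), and this call was lost without any 1 of the 4 treated H1650 libraries (adjusted p from 0.0858 to 0.292) and with DESeq2 (adjusted p = 0.108).

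The order of the 6 groups differed from gene to gene. For ETV1 it was H1650 erlotinib, H1650 osimertinib, H1650 T0, PC9 T0, PC9 erlotinib and PC9 osimertinib, and each step was called (largest adjusted p = 0.0337) except the last (adjusted p = 0.301). For ETV4, PC9 T0 was followed by H1650 erlotinib, H1650 T0, PC9 erlotinib, H1650 osimertinib and PC9 osimertinib, and below PC9 T0 only the step from H1650 T0 to PC9 erlotinib was called (adjusted p = 0.0137). For ETV5, the order ran from PC9 T0 through H1650 erlotinib, H1650 T0, H1650 osimertinib and PC9 erlotinib to PC9 osimertinib, and only the step from H1650 T0 to H1650 osimertinib was not called (adjusted p = 0.196). By group means, the PEA3 genes thus shared PC9 osimertinib as their lowest group, but for ETV1 and ETV4 it was not separated from the group above it (adjusted p = 0.301 and 0.337). The ELF3 order was PC9 osimertinib, PC9 erlotinib, H1650 osimertinib, H1650 erlotinib, H1650 T0 and PC9 T0, and all 5 steps were called. For EHF the PC9 groups came first, in the order T0, osimertinib and erlotinib, then H1650 erlotinib, osimertinib and T0, and in neither line was the step between the treated groups called. The ETS1 order was H1650 osimertinib, T0 and erlotinib, with no called step among them, then PC9 T0, PC9 erlotinib and PC9 osimertinib, where the last step was not called. ETS2 was highest in H1650 T0 and lowest in PC9 T0, with the 4 treated groups between them in the order PC9 osimertinib, PC9 erlotinib, H1650 osimertinib and H1650 erlotinib and no called step among those 4. The ELK1 order was H1650 T0, osimertinib and erlotinib, then PC9 T0, osimertinib and erlotinib, with called steps only between the lines and from PC9 T0 to osimertinib. ELK3 followed the order PC9 T0, osimertinib and erlotinib, then H1650 T0, osimertinib and erlotinib, with no called step within H1650. For ELK4 the order was PC9 T0, PC9 erlotinib, H1650 erlotinib, H1650 osimertinib, PC9 osimertinib and H1650 T0, and none of the 5 steps was called. Among all genes, 71.4% were called between H1650 erlotinib and PC9 T0, and 75.1%, 72.1% and 72.6% between PC9 erlotinib and H1650 T0, erlotinib and osimertinib. Between PC9 osimertinib and H1650 T0 or osimertinib, 73.9% and 71.6% were called.

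Of 14 genes that are common outputs of ERK signaling, 13 fell and 1 rose in PC9 with each drug, with median log2 fold changes of -2.98 and -3.08. In H1650, 7 rose and 5 fell with erlotinib (median 0.53), and 1 rose and 8 fell with osimertinib (median -0.40). Called were thus 14, 14, 12 and 9 of the 14, against 61.8%, 61.4%, 36.5% and 35.7% of all genes. The drug-by-line difference was called for all 14 with both drugs, 13 higher and 1 lower, against 40.8% and 41.9% of all genes. FOSL1, an AP-1 subunit, went from 298 ± 2.65 CPM (SD, n = 2) in PC9 T0 to 14.2 ± 1.46 and 16.8 ± 2.74, and from 25.6 ± 0.311 in H1650 T0 to 3.80 ± 0.172 and 2.96 ± 0.340, after erlotinib and osimertinib. SPRY2, a feedback inhibitor of receptor tyrosine kinase signaling, fell in PC9 from 22.7 ± 0.833 CPM to 3.47 ± 0.283 and 4.54 ± 0.401, and in H1650 rose from 12.03 ± 0.453 to 17.8 ± 1.85 with erlotinib (adjusted p = 0.000953) and was at 12.3 ± 0.699 with osimertinib. The ephrin receptor EPHA2 fell in PC9 from 292 ± 4.46 CPM to 17.95 ± 0.709 and 27.6 ± 0.0832, with log2 fold changes of only -0.36 and -0.29 in H1650. EPHA4 was the gene of the list that rose in PC9 (log2 fold change 1.59 and 2.07), and it fell in H1650 (-0.83 and -0.75).

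Most of 9 immediate early genes of SRF and the ternary complex factors, SRF included, rose in PC9, and none rose in H1650. In PC9, 6 rose and 1 fell with erlotinib (median 0.59), and 8 rose and 1 fell with osimertinib (median 1.45, and 8 rose and none fell with DESeq2). EGR2 had 1 and 3 reads in PC9 T0, and EGR3 had at most 3 reads in each treated PC9 library. With at least 10 counts in every library, 7 of these genes were tested, and in PC9 5 rose with erlotinib, 7 rose with osimertinib and none fell. In H1650, 7 fell with erlotinib (median -0.86) and 4 fell with osimertinib (median -0.28). In that order 7, 9, 7 and 4 of the 9 were called, against 61.8%, 61.4%, 36.5% and 35.7% of all genes, so the last count is close to the background. FOS, the classic target of the complex, was at 17.6 ± 2.87 CPM in PC9 T0, 26.5 ± 4.75 after erlotinib and 133 ± 8.23 after osimertinib, and at 128 ± 14.5, 73.2 ± 5.10 and 125 ± 7.65 CPM in the H1650 groups. EGR1 was at 31.8 ± 5.98, 54.6 ± 1.37 and 163 ± 17.8 CPM in PC9 and at 465 ± 38.2, 78.1 ± 7.34 and 158 ± 7.94 CPM in H1650. Like FOS, EGR1 was thus higher in treated PC9 cells and lower in H1650 cells after erlotinib than at T0. FOSB rose in PC9 by 0.94 and 2.98 and fell in H1650 by 1.18 and by 0.64 on the log2 scale. SRF rose in PC9 by 0.52 and 0.47 and fell in H1650 by 0.79 and by 0.69 (largest adjusted p of the 4 = 5.43e-05). It is counted both among these 9 genes and among the ETS regulators below.

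**Figure D4:**
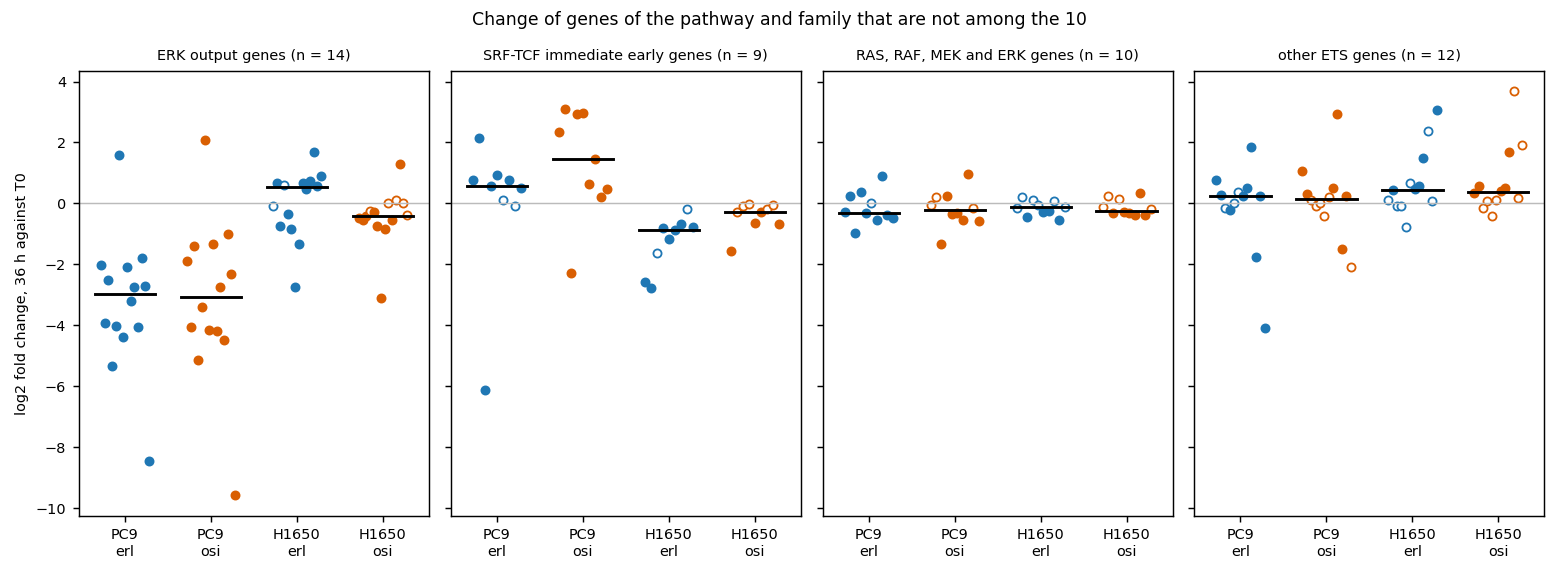
Log2 fold change against T0 of genes outside the 10, by list, line and drug, with each point a gene, the black bar the median and open points those that did not pass an adjusted p of 0.05. ERK output genes lie mostly below 0 in PC9 (medians -2.98 and -3.08), and immediate early genes lie mostly above 0 in PC9 and below 0 in H1650. The lowest points, SPRY4 in PC9 at -8.45 and -9.59, rest on at most 2 reads in each treated library.

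Genes of the pathway itself and of its ETS regulators were called in both directions. Of 10 genes of the RAS-RAF-MEK-ERK cascade, 3 rose and 6 fell in PC9 with erlotinib, 2 rose and 5 fell in PC9 with osimertinib, 4 fell in H1650 with erlotinib, and 1 rose and 5 fell in H1650 with osimertinib (medians -0.31, -0.23, -0.13 and -0.24 in that order). Of the 10, 9, 7, 4 and 6 were called, against 61.8%, 61.4%, 36.5% and 35.7% of all genes, and the counts for PC9 with osimertinib and H1650 with erlotinib are close to the background. MAPK3 (ERK1) rose in PC9 by 0.89 and 0.98 on the log2 scale. HRAS fell in all 4 comparisons (-0.97 and -1.35 in PC9, -0.44 and -0.32 in H1650), and BRAF was called in PC9 with erlotinib alone (0.23, adjusted p = 0.0335). Of 10 tested regulators of ETS factors, 7 rose and 1 fell in PC9 with erlotinib, 5 rose and 1 fell with osimertinib, 2 fell in H1650 with erlotinib, and 1 rose and 3 fell with osimertinib (medians 0.37, 0.39, 0.01 and 0.05). The counts of 8, 6, 2 and 4 called regulators stand beside the same shares of all genes, and those with osimertinib are close to them. CIC, the repressor of the PEA3 genes, was between 109 ± 12.4 and 203 ± 9.45 CPM in the 6 groups and was called in none of the 4 drug comparisons (adjusted p from 0.274 to 0.970). ATXN1, which forms a complex with CIC, rose in PC9 by 1.25 and 1.55 and fell in H1650 by 0.31 and by 0.49. RPS6KA1, an ERK-activated kinase, fell in PC9 by 0.49 and by 0.53 and was not called in H1650, while MKNK1, another kinase below ERK, rose in PC9 by 0.53 and 0.49 and in H1650 with osimertinib by 0.36. COP1, a ubiquitin ligase of the PEA3 proteins, was not analysed here.

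Among 18 other ETS genes, 12 were tested, since FEV, ETV3L, ELF5, SPI1, SPIB and SPIC were below the expression filter. In PC9, 6 rose and 3 fell with erlotinib (5 and 4 with RLE normalization, 3 and 3 with DESeq2), and 5 rose and 1 fell with osimertinib. In H1650, 5 rose and none fell with either drug. The medians were 0.25, 0.16, 0.45 and 0.38 in that order, and 9, 6, 5 and 5 of the 12 were called, against 61.8%, 61.4%, 36.5% and 35.7% of all genes. The share called in PC9 with osimertinib was below the background, and those in H1650 were close to it. ELF1, which is best known from lymphoid cells, rose from 44.1 ± 0.859 CPM in PC9 T0 to 75.6 ± 8.63 and 93.2 ± 7.53, and in H1650 was called with osimertinib alone (0.34, adjusted p = 0.00410). ETV6, a repressor of the family, rose in all 4 comparisons by 0.49 to 0.57 on the log2 scale. ERF, a repressor that ERK exports from the nucleus, fell in PC9 with erlotinib by 0.22 (adjusted p = 0.0425) and was not called elsewhere, and ELF4 was not called in any of the 4. None of these 4 genes changed by more than 1.08 on the log2 scale with either drug in either line. Larger changes were called for others of the 12 genes. ETV7 rose in PC9 by 1.86 and 2.94 and in H1650 by 1.49 and 1.70. FLI1 had log2 fold changes of -1.76 and -1.49 in PC9, and at most 2 reads in any H1650 library. Against T0, SPDEF was called with erlotinib alone, at -4.09 in PC9, where 1 and 0 reads were left, and at 3.05 in H1650.

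Of 12 epithelial genes that work beside ELF3 and EHF, 4 rose and 5 fell in PC9 with erlotinib and 4 rose and 4 fell with osimertinib, while in H1650 2 rose and 3 fell with erlotinib and 5 rose with osimertinib, or 3 with RLE normalization (medians 0.11, 0.04, 0.04 and 0.19). The counts of 9, 8, 5 and 5 called genes stand beside 61.8%, 61.4%, 36.5% and 35.7% of all genes and are near this background with osimertinib in PC9 and with both drugs in H1650. KLF5 and GRHL2, epithelial transcription factors, rose in PC9 (0.63 and 1.11 for KLF5, 0.67 and 0.72 for GRHL2), and in H1650 KLF5 was called with osimertinib alone (0.20, adjusted p = 0.0325). EPCAM, an epithelial adhesion molecule, fell in PC9 by 0.96 and by 0.89 and rose in H1650 by 0.23 and 0.59. OVOL2, a repressor of mesenchymal genes, fell in PC9 by 0.31 (adjusted p = 0.0489) and by 0.46 (adjusted p = 0.00558). In H1650 it fell with erlotinib by 0.38 (adjusted p = 0.0341). Of 10 protease genes with known ETS sites, MMP3 and MMP13 were below the filter. In PC9, 1 of the 8 others rose and 3 fell with erlotinib, and 2 rose and 3 fell with osimertinib (1 and 3 with DESeq2). In H1650, 8 fell with erlotinib (6 with DESeq2), and 1 rose and 7 fell with osimertinib (1 and 5 with DESeq2). With no filter, 7 were called in H1650 with each drug. Of the 8, 4 and 5 were called in PC9 and 8 and 8 in H1650, where the same shares of all genes were called, and the count in PC9 with osimertinib is near the background. The medians were -1.34, -0.24, -1.50 and -1.08. Those for PC9 were -0.72 and -0.47 without MMP1, MMP9 and MMP10, which had at most 2 reads in any PC9 library. MMP1 and MMP7 had at most 3 reads in each treated H1650 library. MMP14 rose in PC9 from 28.8 ± 1.31 CPM to 101 ± 3.35 and 191 ± 2.34 and fell in H1650 from 31.3 ± 1.44 to 21.7 ± 1.09 and 24.5 ± 1.20. The urokinase gene PLAU fell in PC9 by 0.72 and by 0.47 and in H1650 with erlotinib by 0.66, and rose there with osimertinib by 0.26, and its receptor gene PLAUR fell in all 4 comparisons. MMP2 fell in H1650 from 180 ± 3.68 CPM to 119 ± 1.56 and 126 ± 13.2, and in PC9 was at 1.07 ± 0.263 CPM at T0 and at most 2 reads in each treated library.

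Genes with the most similar profiles were sought as those with the smallest root mean square difference of centred log2 CPM over the 12 libraries, among 14995 tested genes with a mean of at least 1 CPM. For ELF3 these were HSD17B14 (0.19), PKD1L2 (0.23) and FBXO32 (0.25), against a root mean square of 1.31 for ELF3 itself about its own mean. FBXO32 was at 6.61 CPM in PC9 T0, 80.5 and 89.3 CPM after the drugs, and at 24.2, 55.6 and 71.6 CPM in the H1650 groups. For ETV4 they were WAKMAR2 (0.56), LIPG (0.62) and ITGA2 (0.72), against 1.90 for ETV4. ITGA2, an integrin subunit, had group means of 386 CPM in PC9 T0, 26.7 and 28.1 CPM after erlotinib and osimertinib, and 58.8, 54.9 and 42.8 CPM in H1650. For ETV5 they were MFSD2A (0.64), PTX3 (0.83) and TGM2 (0.87), against 2.40, and for EHF they were UCHL1 (0.48), AKR1B10 (0.52) and TNIK (0.52), against 3.96. For ETV1 the nearest were KCNK2 (0.84), PCOLCE2 (0.91) and XYLT1 (0.91), against 3.26. KCNK2 shared with ETV1 a low level in PC9, 0.923 CPM at T0, and a rise of its group means in H1650 from 5.76 CPM to 9.94 CPM after erlotinib. These 12 points share libraries and groups, and the differences are given as a description.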

How the data were processed

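Polyadenylated RNA was sequenced from PC9 and H1650 cells in 6 groups of 2 libraries. Reads went through the DolphinNext pipeline, and the authors deposited raw counts per gene from featureCounts, without normalization. GRCh38 and DESeq2 are named in the submitters' processing notes, and the aligner, annotation and strandedness are not given in the sources used here. Library totals (17961765 to 26346187) limit precision as described for 3 reads.

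Counts were analysed with edgeR 4.0.16 in R 4.3.3 (limma 3.58.1). The filter by group kept 19108 genes, TMM factors were 0.941 to 1.08, and 1 quasi-likelihood model of 6 groups was fitted to all 12 libraries. The biological coefficient of variation was 0.0656. P-values were adjusted over all tested genes by Benjamini-Hochberg, and genes with an adjusted p under 0.05 were called. SEs were derived from the fold change and its F statistic, and errors of CPM are SDs of 2 libraries. Ratios with at most 3 reads in each library of a group carry exact counting intervals. The procedure was tested on simulated data. Positions and exon overlaps come from GENCODE 29 and upstream windows from RefSeq. Levels per kilobase used the gene length in the deposited table.

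The members and gene lists were chosen with earlier results of these data known. All 10 genes are named. From each list, the 2 highest and 2 lowest mean changes over the 4 drug comparisons among genes with at least 10 CPM are named, with CIC and SRF. SPRY4, ETV7, FLI1 and SPDEF were named after their values were seen. Similarity used log2 CPM with a prior count of 2. The alternatives were DESeq2 1.42.0, RLE normalization, no filter (at least 1 count), at least 10 counts in every library, blocking on the replicate number, separate fits of the lines, and leaving out each of 12 libraries.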

Additional observations from a re-analysis of the deposited data

Results flagged for a closer look

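The change with drug differed between PC9 and H1650, by the drug-by-line test of edgeR, for 9 of the 10 genes with each drug. Values are the log2 change in H1650 minus that in PC9, first with erlotinib and then with osimertinib. Among the PEA3 genes, the difference was 6.71 and 7.72 for ETV1, 5.21 and 4.77 for ETV4, and 7.80 and 7.05 for ETV5. It was 1.42 and 1.68 for ETS1 and -1.14 and -1.17 for ETS2. It was 0.54 and 0.51 for ELK3 and 0.36 and 0.53 for ELK4, and the value of ELK4 with erlotinib was not called without any 1 of 4 libraries, PC9 T0 replicate 2, PC9 erlotinib replicate 1, H1650 T0 replicate 1 and H1650 erlotinib replicate 2 (adjusted p from 0.0637 to 0.0761). ELF3 differed the other way, by -3.27 and -3.0. For EHF the difference was 3.53 and 3.14, where H1650 T0 held 1 read in each library, and the value with osimertinib was not called without H1650 osimertinib replicate 2 (adjusted p = 0.0557).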

How the results depend on the processing

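Over 1563 values recomputed under the alternatives, 1522 kept their direction and their side of the threshold, 29 lost a call, 5 gained a call and 7 changed sign. Many of these values left out a library that was not in the groups compared, so they had little room to change. A stricter filter, which asked every library for at least 10 counts and removed ETV1, ETV5 and EHF from the test, left 4 called genes in H1650 with erlotinib and 3 with osimertinib. Leaving out 1 library gave 9 to 9 called genes in PC9 with erlotinib, 9 to 10 with osimertinib, 6 to 7 and 4 to 5 in H1650, 8 to 9 and 8 to 10 for the drug-by-line difference, 2 to 4 and 3 to 4 for osimertinib against erlotinib in PC9 and H1650, and 10 to 10 at T0. The sign changes were in values that passed no test. Under the stricter filter the ELK1 change in H1650 with osimertinib was 0.0066. Without 1 library each, ELK1 in H1650 ran from -0.175 to 0.0178 with erlotinib and from -0.108 to 0.0891 with osimertinib, and ETS1 with erlotinib from -0.132 to 0.0431. Between the drugs in H1650, ETS2 ran from -0.0115 to 0.0937 and EHF from -0.820 to 0.0593. The call of EHF in H1650 with osimertinib was lost with 1 fit per cell line (adjusted p = 0.0883), in which ETV4 differed between the drugs in PC9 (adjusted p = 0.0489), and that of ELK3 between the drugs in PC9 was lost with no filter (adjusted p = 0.0514). ELK3 between the drugs in H1650 gained a call under the stricter filter (adjusted p = 0.0450).

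Over 15 pairs of groups, the correlation of the differences between replicate 2 and replicate 1 ran from -0.05 to 0.18. It was over 0.1 in 5 pairs and under -0.1 in 0. Whether libraries of the same replicate number shared a handling effect was not tested. With the replicate number as a block, ELK3 was called between the drugs in H1650 (adjusted p = 0.0114), for 5 called genes, and no other call of the 10 genes changed. With RLE normalization, 3 epithelial genes, not 5, rose in H1650 with osimertinib. Under the stricter filter, 3 protease genes were tested, and 8 of 12 other ETS genes, of which 5 were called in PC9 with erlotinib. The cause of the other changes was not tested. Depth limits ETV1 in treated PC9 cells and EHF in H1650 cells.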
